A study of Mus musculus with 8 samples.

Results

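Acod1 (also known as Irg1) encodes aconitate decarboxylase 1, the mitochondrial enzyme that makes itaconate from cis-aconitate, an intermediate of the tricarboxylic acid (TCA) cycle. It is 1 of 22180 genes read by a probe set with a single gene symbol, and it was chosen by its range over the same 8 arrays, so its own levels and differences are given without a test. Of the 41345 probe sets, 1 was assigned to Acod1 alone and 0 to Acod1 together with other genes, so all Acod1 values come from that probe set. Its signal spanned 7.52 on the log2 scale, the seventh widest range of all genes. Iigp1, an interferon-induced GTPase, lay just above it with a range of 7.54, and Usp18, the protease that removes Isg15, just below it with 7.17.

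The cells were mouse embryonic fibroblasts (MEFs) with the genotype STING-/-, labelled as primary, and carried STING R284S, STING N154S (which the design text calls a SAVI mutant, after the STING-associated vasculopathy with onset in infancy), the wild-type form labelled hSTING, or the empty pBabe vector. Each of these 4 lines was profiled on 1 array after double-stranded DNA (dsDNA) given with Lipofectamine 2000 for 9 h and on 1 array as control cells, so all 8 arrays share the loss of endogenous STING and no group has a replicate. Whether control cells were given the reagent without DNA, whether a line is a clone or a pool, and how strongly each construct was expressed were not given in the sources used here. A difference between lines therefore belongs to that pair of cell populations and cannot be told apart from any other difference between them. In bulk samples, fewer cells with a transcript and less of it per cell cannot be told apart either.

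STING is an adaptor in the endoplasmic reticulum that is switched on by cyclic GMP-AMP, the messenger that the enzyme cGAS makes when it meets DNA in the cytosol. It recruits the kinase TBK1, which phosphorylates the transcription factor IRF3 and so turns on interferon beta, and it also activates NF-kB, which drives inflammatory genes. Acod1 is best known from macrophages, where it is induced by bacterial products, by NF-kB and by interferons. Itaconate slows succinate dehydrogenase and modifies cysteines of proteins such as KEAP1, which releases the antioxidant transcription factor NRF2.

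The promoter sequence is shown so that it can be set beside sites in the promoters of genes whose signals moved together with that of Acod1, given further on. RefSeq (build GRCm38.p6) places the 250 bases before the Acod1 transcription start at chr14:103046762-103047011 on the plus strand, while the build behind the array design was not given in the sources used here. In this sequence the capitals mark, from left to right, an NF-kB match, an IRF core match and a TATA box.

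Acod1 promoter: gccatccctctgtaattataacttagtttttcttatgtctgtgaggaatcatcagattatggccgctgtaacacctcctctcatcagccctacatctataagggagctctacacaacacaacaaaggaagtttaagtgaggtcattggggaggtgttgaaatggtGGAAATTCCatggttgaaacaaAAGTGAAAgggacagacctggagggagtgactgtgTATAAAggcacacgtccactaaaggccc

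The NF-kB match GGAAATTCC fits the form GGAANTTCC and lies at -85 to -77 from the start, the IRF core match AAGTGAAA fits AANNGAAA at -63 to -56, and TATAAA lies at -28 to -23. Both strands were searched. Of 32851 RefSeq promoter windows of the same length, 0.81% held GGAANTTCC, 21.31% held AANNGAAA and 12.37% held TATAAA on either strand. The form GGAANTTCC was added to the search after the Acod1 sequence had been read, so its match is a description. No match was found for the interferon-stimulated response element (GAAA, any 2 bases and GAAA, a form that contains the IRF core), which 2.98% of windows held, for the longer NF-kB form (GGGA, any base and TTTCC, held by 0.36%), or for the AP-1 form TGANTCA (6.75%).

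Acod1 had its highest signal in hSTING cells with dsDNA, at 10.76. N154S cells with dsDNA followed at 10.42, R284S cells with dsDNA at 9.90 and R284S control cells at 9.65. N154S control cells read 7.18, near the middle of the range. The remaining 3 arrays were low, with vector cells with dsDNA at 3.91, vector control cells at 3.63 and hSTING control cells at 3.24, all of them below the median signal of the named genes of their own array, which lay between 4.42 and 4.47. The arrays thus fell into 4 with high signals, 1 in between and 3 at the low end. With 1 array per group, no replicate spread says which neighbours in this order differ.

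**Figure D1:**
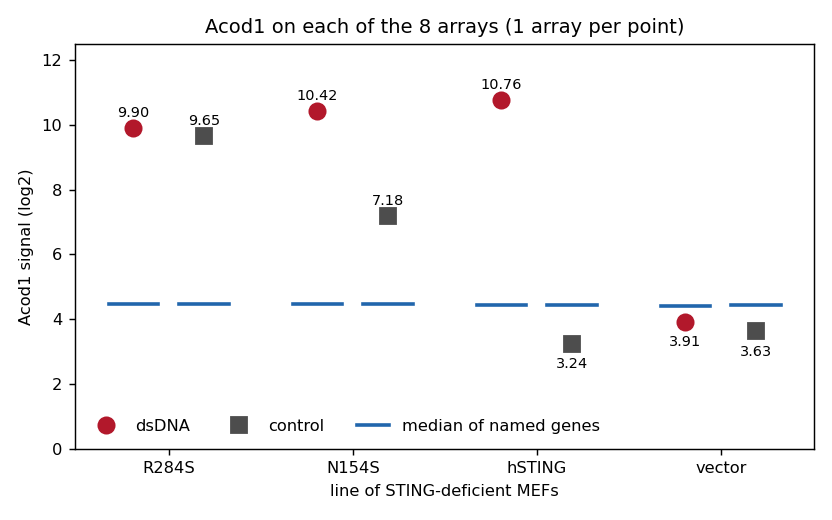
Acod1 signal (log2, vertical axis) on each of the 8 arrays, for the 4 lines from R284S to vector, with dsDNA as red circles and control as grey squares; blue bars give the median of the named genes of that array. The 3 lowest points, vector with dsDNA (3.91), vector control (3.63) and hSTING control (3.24), lie under the blue bars.

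The dsDNA comparison asked what transfected DNA did to Acod1 in each line. In hSTING cells Acod1 read 10.76 with dsDNA and 3.24 in control cells, a difference of 7.52 as measured. Since the control signal was below its array's median, the fold is given as at least 79.3-fold, and 0 other genes had a difference above this bound of 6.31 on the log2 scale. In N154S cells it read 10.42 with dsDNA and 7.18 in control cells, 9.45-fold higher, again the largest difference of all genes in that line. In R284S cells it read 9.90 with dsDNA and 9.65 in control cells, 1.19-fold higher, and the difference of 0.25 was smaller than the 0.51 within which 95% of genes lay in that comparison. In vector cells it read 3.91 with dsDNA and 3.63 in control cells, both below the array medians, and the difference of 0.28 also lay within the 0.51 that held 95% of genes there. DNA thus went with a high Acod1 signal in the STING lines, and the R284S line had that signal in control cells already.

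The dsDNA difference of Acod1 was thus uneven between lines. It was 0.25 in R284S and 3.24 in N154S cells, both between measured signals, and at least 6.31 in hSTING cells. The R284S value lay 2.99 below the N154S value, the third lowest such value of all genes. In vector cells both signals were too dim for a bound. These values have no replicate check.

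The lines were then compared without added DNA. Acod1 read 9.65 in R284S and 7.18 in N154S control cells, against 3.24 in hSTING and 3.63 in vector control cells. Relative to vector cells this was at least 36.8-fold higher in R284S and at least 6.63-fold higher in N154S cells, and hSTING and vector control cells were both too dim for a fold. On the log2 scale the bounds were 5.20 in R284S and 2.73 in N154S cells, and 9 and 61 other genes had differences from vector control cells above them. With hSTING control cells in place of vector the bounds were the same, and 0 other genes in R284S and 7 in N154S cells lay above them. Between the mutants, R284S over N154S, both signals were above the median. Its difference of 2.47 ranked first among the genes higher in R284S cells.

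With dsDNA the STING lines differed by less than 1 on the log2 scale. R284S cells with dsDNA were 1.82-fold lower than hSTING cells with dsDNA, a difference of -0.86, just outside the 0.84 that held 95% of genes. R284S cells were at -0.52 from N154S cells, where 95% of genes lay within 0.62, and N154S cells at -0.34 from hSTING cells, where they lay within 0.65. All 3 lines stood at least 44.6-fold above vector cells with dsDNA, and in each of them 2 other genes had a difference from vector above the bound of Acod1.

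The interferon-stimulated genes differed from Acod1 in hSTING control cells. Of 26 measured members of a list of such genes, 21 were 2-fold or more higher in hSTING control than in vector control cells, where 0.415% of all genes were (a difference of 1 or more on the log2 scale, with the brighter array at or above its median), and the median difference of the list was 3.01 against -0.01 for all genes. Usp18 read 10.88 in hSTING and 4.84 in vector control cells. Irf7, the transcription factor that amplifies the interferon response, read 9.72 in hSTING and 5.27 in vector control cells. Acod1, at 3.24 against 3.63, was not among the genes that stood higher. The same list was 2-fold or more higher for 23 of 26 members in N154S control cells (1.01% of all genes) and for 21 of 26 in R284S control cells (1.15% of all genes), with medians of 4.47 and 3.85, and all 3 comparisons share the vector control array.

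Vector cells, which carry no STING construct, also had higher interferon-stimulated signals after dsDNA without a high Acod1 signal. In them 12 of 26 list members were 2-fold or more higher with dsDNA than in control cells, where 0.149% of all genes were. Ifit1, which binds viral RNA, read 7.35 with dsDNA and 3.94 in control cells. Cxcl10, a ligand of the T cell receptor CXCR3, read 8.21 with dsDNA and 5.13 in control cells. Acod1 stayed under the array median in both.

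The NF-kB and inflammatory list stood closer to Acod1 on the low arrays. Of its 34 measured members, 0 were 2-fold or more higher in hSTING control cells than in vector control cells (0.415% of all genes), with a median of -0.03. In vector cells 0 were higher with dsDNA than without (0.149% of all genes), with a median of 0.04. At such small shares a count of 0 of 34 does not set this list apart from all genes. In hSTING cells 16 of 34 were 2-fold or more higher with dsDNA (2.01% of all genes), and in N154S cells 7 of 34 (0.379% of all genes), among them Cxcl2, a neutrophil chemokine, which read 7.42 with dsDNA and 3.33 in control hSTING cells. In R284S cells 0 of 34 were higher with dsDNA, where 6 of all genes (0.0271%) were. The interferon-stimulated list gave 21, 9 and 0 of 26 in hSTING, N154S and R284S cells with dsDNA over control.

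In control cells the NF-kB list split, and few of its members followed Acod1. Against vector control cells, 4 of 34 were 2-fold or more higher in R284S control cells, where 1.15% of all genes were. They were Nos2, Tnfaip3, Il1a and Lcn2, which encodes the iron-scavenging protein lipocalin 2. In N154S control cells 3 of 34 were higher (1.01% of all genes), the first 3 of these. The tumour necrosis factor gene Tnf read 7.50 with dsDNA and 3.44 in control hSTING cells, but 4.18 in R284S and 4.16 in N154S control cells, against 4.02 in vector control cells. Cxcl2 read 4.97 in R284S and 3.93 in N154S control cells, against 4.12 in vector control cells. Acod1, in contrast to these genes, had 85.2% of its range in R284S control and 52.4% in N154S control cells. The medians over the 9 list members with a range of 2 or more were 40.1% and 24.0%.

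**Figure D2:**
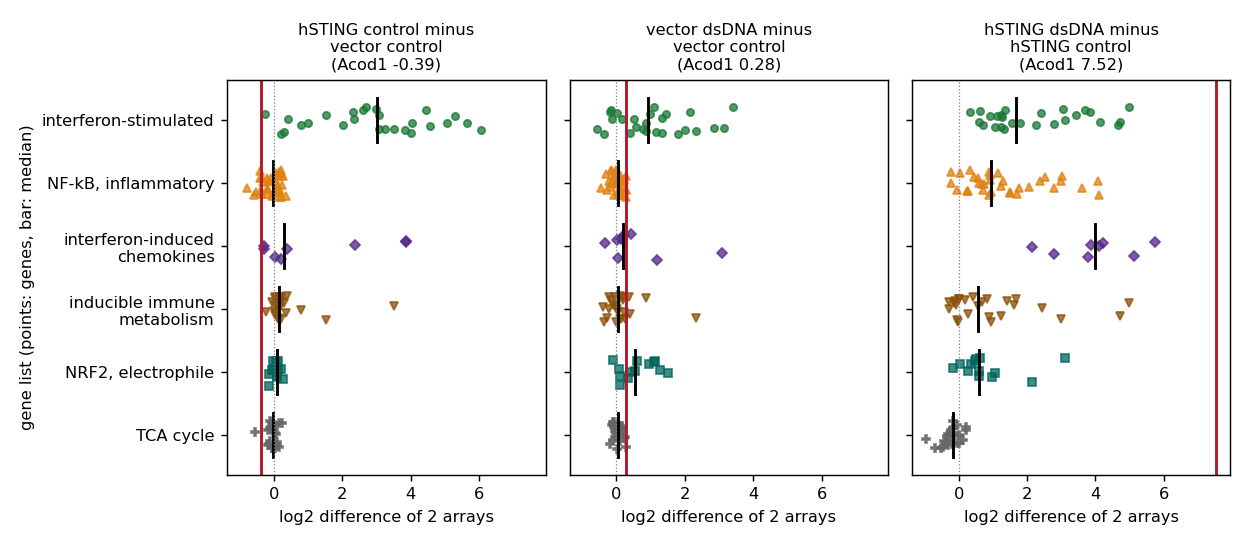
Log2 difference of 2 arrays (horizontal axis) for the members of 6 gene lists (points, with black bars at the medians) in hSTING over vector control cells, in vector cells with dsDNA over control, and in hSTING cells with dsDNA over control; the red line is Acod1. Acod1 lies at -0.39, 0.28 and 7.52, while the interferon-stimulated genes have medians of 3.01, 0.94 and 1.68.

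The interferon-induced chemokines were mixed. In R284S control cells 7 of 8 were 2-fold or more higher than in vector control cells, in N154S control cells 5 and in hSTING control cells 3, and with dsDNA over control 8 of 8 were in hSTING, 4 in N154S, 0 in R284S and 1 in vector cells. Of all genes, 1.15%, 1.01% and 0.415% were in the first 3 comparisons and 2.01%, 0.379%, 0.0271% and 0.149% in the other 4. Cxcl11, a further CXCR3 ligand, followed Acod1, with 8.99 in R284S, 7.28 in N154S and 4.14 in hSTING control cells, against 4.42 in vector control cells. Ccl5, which attracts T cells, did not, and read 8.60 in hSTING against 4.74 in vector control cells.

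**Figure D3:**
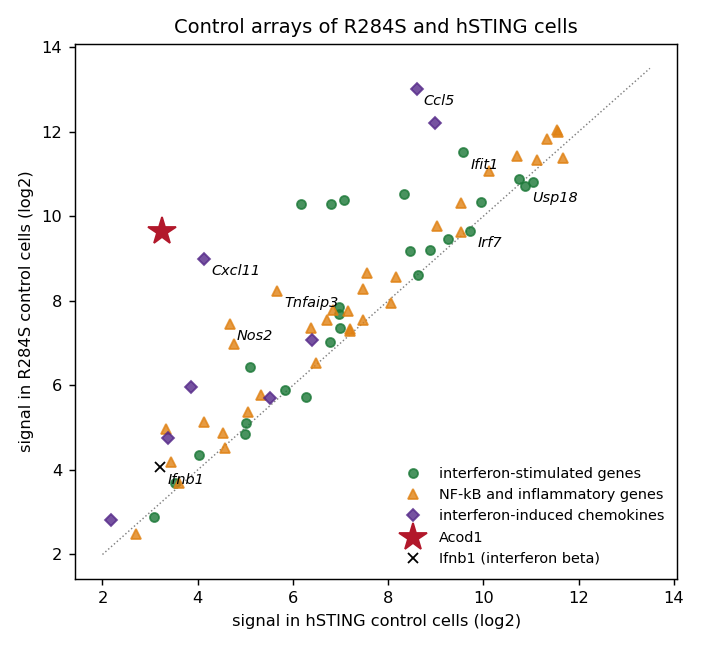
Signal in R284S control cells (log2, vertical axis) against the signal of the same gene in hSTING control cells (log2, horizontal axis), for 3 gene lists, Ifnb1 and Acod1 (star); the dotted line marks equal signals. Acod1 lies at 9.65 against 3.24, Cxcl11 at 8.99 against 4.14, and Irf7 on the line at 9.66 against 9.72.

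Among the genes upstream of Acod1, the gene for interferon beta, Ifnb1, was high on another set of arrays. It read 8.80 in hSTING cells with dsDNA and 3.21 in hSTING control cells, and 4.95 and 2.82 in N154S cells. In R284S cells it read 3.04 with dsDNA and 4.06 in control cells, both below the array medians, on the arrays where Acod1 read 9.90 and 9.65. In vector cells Ifnb1 read 3.18 on both arrays. Of the 24 measured upstream genes, 6 were 2-fold or more higher with dsDNA than in control hSTING cells, where 2.01% of all genes were, among them Irf1 (7.75 against 5.59), an interferon and NF-kB target that is itself a transcription factor, and the NF-kB subunits Rel (6.87 against 5.67) and Nfkb2 (8.26 against 7.08). In R284S cells 0 of the 24 were, beside 0.0271% of all genes.

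Averaged over both treatments, Irf7 rose in all 3 STING lines, with some calls that depended on the setting. In the limma fit with line and treatment as terms, Irf7 rose in R284S cells by 3.80 (SE 0.34, adjusted p = 0.00496), in N154S cells by 5.08 (SE 0.34, adjusted p = 0.00401) and in hSTING cells by 4.40 (SE 0.34, adjusted p = 0.0172), each against vector cells. Stat2 and Irf9, partners in the factor that binds interferon response elements, rose in R284S and N154S cells. The call of Irf7 in hSTING cells was lost without the N154S pair of arrays (limma, adjusted p = 0.108) and with a trend and robust variances (adjusted p = 0.191), Stat2 was lost in both lines with the latter (adjusted p = 0.0767 in R284S and 0.0569 in N154S cells) and in R284S cells without the N154S pair (adjusted p = 0.0597), and Irf9 in R284S cells without the N154S pair (adjusted p = 0.118) or the hSTING pair (adjusted p = 0.0619). In this list 3 of 24 genes rose in R284S, 3 in N154S and 1 in hSTING cells, beside 1.02%, 0.708% and 0.0992% of all genes. In it 0 fell, and without the N154S pair 1 rose in R284S and 0 in hSTING cells. The kinase gene Ikbke did not pass, at 0.945 in N154S (limma, adjusted p = 0.0648) and 0.86 in R284S cells (adjusted p = 0.0707). In control cells it stood 1.07 higher in N154S than in vector cells. The NF-kB factor genes Rela, Relb, Rel and Nfkb2 did not pass either. Their effects ran from -0.165 (Rel in R284S) to 0.06 (Nfkb2 in N154S) in the mutant lines. In hSTING cells they ran from 0.055 (Rela) to 0.515 (Nfkb2). The endogenous gene Sting1 read 3.68 to 4.22 on the 8 arrays, below the medians, and which of its exons were removed was not stated in the sources used here.

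Over all genes, 226 rose (1.02%) and 227 fell (1.02%) in R284S cells in that fit, 157 rose (0.708%) and 135 fell (0.609%) in N154S cells, and 22 rose (0.0992%) in hSTING cells. Without the N154S pair, 50 rose and 79 fell in R284S cells and 0 rose in hSTING cells. Without the hSTING pair, 363 rose in R284S cells and 347 rose and 247 fell in N154S cells, and without the R284S pair 72 fell in N154S and 47 rose in hSTING cells. For dsDNA over the 4 lines, 0 genes (0.0%) passed at an adjusted p of 0.05 with limma, 2395 had an unadjusted p under 0.05, and 4 passed with a trend and robust variances. The residual of this fit, with 3 degrees of freedom, holds the unequal dsDNA response of the lines, which is wide for genes with the pattern of Acod1. Of the interferon-stimulated list, 18 of 26 rose in R284S, 21 in N154S and 6 in hSTING cells, which became 7 in R284S and 0 in hSTING cells without the N154S pair, 14 in hSTING cells without the R284S pair, and 6, 11 and 3 with a trend and robust variances. Of the NF-kB list, Lcn2 and Ier3, an early response gene, rose in R284S cells and 0 of 34 passed in N154S and hSTING cells, while without the hSTING pair 6 rose in R284S and 7 in N154S cells, and without the N154S pair the call of Ier3 was lost (limma, adjusted p = 0.109).

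The genes with the most similar pattern were ranked by Pearson's r with Acod1 over the 8 log2 signals, among the 317 other genes with a range of 2 or more. The points share arrays, lines and scale, and the median r of these 317 genes was 0.75, so r is a description. Neurl3, Tnfaip3 and Cxcl11 led with r = 0.996 each. Cxcl3, Angpt1, Nos2, Ttc39c, Bmp2, Il1a and Tiparp followed, down to r = 0.972, and the next gene had 0.971. None of these 10 passed the limma fit for any line or for dsDNA. The way they were picked favours this, since the residual of that fit holds the unequal dsDNA response they share with Acod1. The order depended on the measure. By root mean square distance between the log2 signals, Cxcl11 (0.68) and Neurl3 (0.85) were nearest to Acod1. The interferon-stimulated genes Oasl1 (0.96), Rsad2 (1.0) and Cmpk2 (1.15) came next, with r of 0.952, 0.964 and 0.928. Nos2 (1.58) and Tnfaip3 (1.82) lay further away. The distance also depends on the width of a gene's range, which was 7.52 for Acod1, 3.82 for Nos2 and 2.92 for Tnfaip3. By r, Oasl1, Rsad2 and Cmpk2 lay below the 10 named genes. The measures thus place these interferon-stimulated genes differently, and neither is a test.

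Neurl3, which encodes an E3 ubiquitin ligase, read 10.36 with dsDNA and 10.13 in control R284S cells, 10.42 and 8.34 in N154S cells, 10.59 and 5.56 in hSTING cells, and 5.52 and 5.50 in vector cells. Tnfaip3, which encodes A20, an inhibitor of NF-kB signalling that NF-kB itself induces, read 8.23 with dsDNA and 8.24 in control R284S cells, 8.43 and 6.99 in N154S cells, 8.46 and 5.67 in hSTING cells, and 5.67 and 5.54 in vector cells. Both genes were thus low on the same 3 arrays as Acod1, intermediate in N154S control cells and near their highest signal in R284S control cells.

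Nos2, the inducible nitric oxide synthase of activated macrophages, read 7.92 with dsDNA and 7.45 in control R284S cells, 8.09 and 6.64 in N154S cells, 7.66 and 4.67 in hSTING cells, and 4.27 and 4.48 in vector cells. Il1a, which encodes the cytokine interleukin 1 alpha, read 7.13 with dsDNA and 6.97 in control R284S cells, 7.57 and 6.52 in N154S cells, 7.29 and 4.76 in hSTING cells, and 4.25 and 4.40 in vector cells. Both had their highest signal in N154S cells with dsDNA, where Acod1 had its second highest.

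The other members were more graded in the mutants. Bmp2, a growth factor of the transforming growth factor beta family, read 6.95 in R284S and 5.42 in N154S control cells, against 8.27 in hSTING cells with dsDNA. Angpt1, a ligand of the endothelial receptor Tie2, read 6.42 in R284S and 5.19 in N154S control cells, against 7.24 in hSTING cells with dsDNA. Cxcl3, a neutrophil chemokine, read 5.51 and 4.78 in these control cells, against 6.32. Tiparp, an ADP-ribosyltransferase, and Ttc39c had the smallest ranges of the 10, at 2.13 and 2.11.

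**Figure D4:**
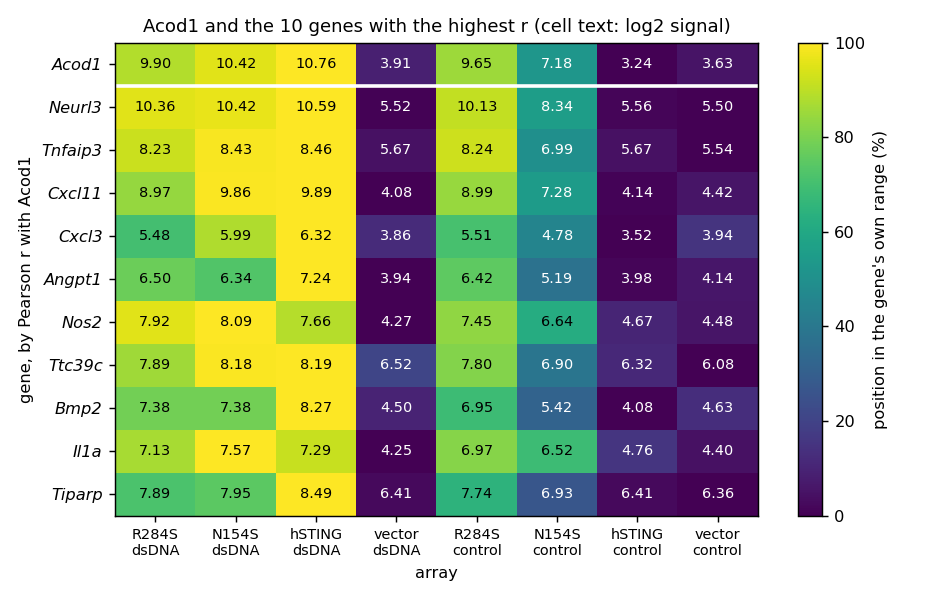
Acod1 and the 10 genes with the highest Pearson r with it (rows) on the 8 arrays (columns, dsDNA left and control right); the colour is the position of the array in the gene's own range (0 to 100%) and the text in each cell is the log2 signal. Acod1, Neurl3, Tnfaip3 and Cxcl11 lie at 84.5% to 92.5% of their range in R284S control cells and at 0.0% to 4.5% in hSTING control cells.

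A stricter description asked which genes lay within the lowest 20% of their range on both vector arrays and in hSTING control cells, and at 80% or more in R284S control cells and in hSTING cells with dsDNA. Of 318 genes with a range of 2 or more, 8 did, namely Acod1, Cxcl11, Il1a, Lilrb4a, Neurl3, Nos2, Penk and Tnfaip3. In N154S control cells these 8 lay at 49.7% (Tnfaip3) to 75.5% (Penk, which encodes proenkephalin). The limits of 20% and 80% were set with the values of Acod1 known.

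RefSeq promoters were given for 5 of the 10 genes. Of these 5, 3 held an NF-kB match of either form in the 250 bases before the start, against 1.34% of the 16990 array genes with a promoter. The interferon-stimulated response element was held by 0 (3.4% of array genes). A TATA box was held by 4 (13.22%), the AP-1 form by 2 (7.44%) and the IRF core by 1 (22.48%). The 5 were picked through their r with Acod1, and so few promoters allow no more than a listing. The NF-kB matches are shown with 10 bases on either side, in the direction of the gene and with the match in capitals, to set beside the Acod1 site in the promoter above. Neurl3 lies at chr1:36273516-36273545 on the minus strand, Tnfaip3 at chr10:19015416-19015444 on the minus strand, and Cxcl3 at chr5:90786018-90786047 on the plus strand.
Acod1 site: ttgaaatggtGGAAATTCCatggttgaaa
Tnfaip3 site: tcacgtgactGGAATTTCCatcggaaatc
Cxcl3 site: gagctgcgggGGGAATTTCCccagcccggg
Neurl3 site: gaggtcatggGGAAAGTCCCggatatcgtc

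The Acod1 and Tnfaip3 sites fit GGAANTTCC, the Neurl3 site fits the longer form on the opposite strand, and the Cxcl3 site fits both forms, which overlap there. A match of letters is not a bound site.

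The list of inducible immune metabolism enzymes, which did not include Acod1, moved in part. Of 25 measured, 8 were 2-fold or more higher with dsDNA than in control hSTING cells, 5 in N154S, 0 in R284S and 1 in vector cells, where 2.01%, 0.379%, 0.0271% and 0.149% of all genes were. In control cells 8 were higher in R284S, 4 in N154S and 2 in hSTING cells than in vector cells, beside 1.15%, 1.01% and 0.415% of all genes. Rsad2 and Cmpk2, interferon-induced enzymes that act on nucleotides, read 6.80 and 7.07 in hSTING control cells, against 5.28 and 3.57 in vector control cells, and so stood higher where Acod1 did not. Ch25h, which makes 25-hydroxycholesterol, read 11.38 with dsDNA and 8.95 in control hSTING cells, and Gch1, which starts the synthesis of the Nos2 cofactor tetrahydrobiopterin, 7.45 and 5.76. In R284S control cells, Gch1 read 6.76 against 5.55 in vector control cells.

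In the limma fit, Cmpk2 rose in R284S cells by 5.70 (SE 0.93, adjusted p = 0.0331) and in N154S cells by 6.04 (SE 0.93, adjusted p = 0.0349), with a vector control signal of 3.57 that lay below its array's median. The glycolytic genes Hk1, a hexokinase, and Pfkfb3, which makes the activator of phosphofructokinase, rose in R284S cells by 0.92 (SE 0.14, adjusted p = 0.0281) and 0.86 (SE 0.13, adjusted p = 0.0243). Without the N154S pair the calls in R284S cells were lost for Cmpk2 (adjusted p = 0.108), Hk1 (adjusted p = 0.0609) and Pfkfb3 (adjusted p = 0.0762), and with a trend and robust variances those of Cmpk2 in R284S (adjusted p = 0.215) and N154S cells (adjusted p = 0.189). In this list 3 of 25 rose in R284S, 1 in N154S and 0 in hSTING cells, beside 1.02%, 0.708% and 0.0992% of all genes. In it 0 fell, and without the hSTING pair 9 rose in R284S and 6 in N154S cells.

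The TCA cycle, which supplies the substrate of Acod1, differed little. Of 25 measured genes of the cycle and of citrate supply, 0 were 2-fold or more higher or lower in any of 7 comparisons. These were dsDNA over control in each line and each STING line over vector in control cells. Of all genes, 0.0271% to 2.01% were higher and 0.018% to 0.721% lower there, so a count of 0 does not set this list apart. In hSTING cells with dsDNA over control the list's median was -0.17 and its lowest members were Idh1 (7.43 with dsDNA and 8.37 in control) and Idh2 (8.16 with dsDNA and 8.86 in control), which encode the NADP-dependent isocitrate dehydrogenases. Aco1, the cytosolic aconitase, read 7.26 with dsDNA and 7.57 in control hSTING cells. Over both treatments Idh2 fell by 1.005 on the log2 scale in N154S cells in the limma fit (SE 0.17, adjusted p = 0.0456). It was the 1 of 25 that passed for any line, where 0.609% of all genes fell in N154S cells. Without the R284S pair it did not pass (limma, adjusted p = 0.0758). In R284S cells the effect of Idh2 was -0.725 and did not pass. With a trend and robust variances, and also without the hSTING pair, 1 of 25 fell in R284S cells.

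Genes that handle itaconate once it is made also differed little. Of 11 measured genes for itaconate clearance, carriers and receptor, 0 were 2-fold or more higher or lower in these 7 comparisons, and 0 passed the limma fit. At most 2.01% of all genes were higher and 0.721% lower in a comparison, so 0 of 11 does not set this list apart. Clybl, which breaks down the citramalyl-CoA formed from itaconate, read 7.30 with dsDNA and 7.39 in control R284S cells, and 6.95 and 6.65 in vector cells. Oxgr1, an itaconate receptor, read 2.71 to 3.07 on the 8 arrays, below the medians. Rab32, a small GTPase of the vacuole pathway through which itaconate reaches bacteria, read 8.40 with dsDNA and 7.50 in control hSTING cells, a difference of 0.90 that was the largest of the list.

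The NRF2 and electrophile genes, which itaconate can induce, did not follow the Acod1 pattern. Of 13 measured, 4 were 2-fold or more higher with dsDNA than in control vector cells, where Acod1 was low on both arrays and 0.149% of all genes were higher. They were the cystine transporter gene Slc7a11 (6.81 against 5.31), the heme oxygenase gene Hmox1 (10.62 against 9.34), Nqo1 and the glutathione synthesis gene Gclm (9.43 against 8.34). In hSTING cells 3 were higher with dsDNA, in N154S cells 2 and in R284S cells 1, beside 2.01%, 0.379% and 0.0271% of all genes. For dsDNA over the 4 lines 0 of 13 passed the limma fit, and 3 rose with a trend and robust variances. In control cells 1 of 13, Hmox1, was higher in R284S than in vector cells, at 10.35 against 9.34, and 0 were in N154S and hSTING cells. Of all genes, 1.15%, 1.01% and 0.415% were higher in R284S, N154S and hSTING control cells.

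Slc7a11 was higher with dsDNA in all 4 lines, at 7.39 against 4.99 in R284S, 6.84 against 4.57 in N154S and 7.68 against 5.53 in hSTING cells, besides the vector cells above. The dsDNA effect averaged 2.08 (SE 0.15) and did not pass in the limma fit (adjusted p = 0.0586). It passed without the vector pair (limma, adjusted p = 0.014) and with a trend and robust variances (adjusted p = 0.00436). Atf3, a stress-induced transcription factor on this list, differed from it. It read 6.63 with dsDNA and 6.53 in control R284S cells, 7.63 and 6.34 in N154S cells, 9.10 and 5.98 in hSTING cells, and differed by 0.07 in vector cells.

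Because Acod1 is known mainly from myeloid cells, markers of other cell types were read on the same arrays. Of 14 fibroblast markers, 14 lay at or above the array median on every array. Of 22 macrophage and other leukocyte markers, 3 to 6 did, and their summed log2 signal was 81.0 to 89.5. Ptprc, which encodes the pan-leukocyte antigen CD45, read 2.48 to 2.67, and the myeloid markers Adgre1, Itgam, Spi1 and Tyrobp were below the median on all 8 arrays. Cd68 (5.77 to 6.52), Cd14 (4.91 to 6.20) and Cx3cr1 (4.91 to 5.28) were above it on all 8 arrays. Cd14 read 5.67 in R284S, 5.72 in N154S and 5.56 in hSTING control cells, against 4.91 in vector control cells, and its part in the Acod1 result was not tested. Mpeg1 and Cybb were the 2 markers on that list that were 2-fold or more higher with dsDNA than in control hSTING cells (6.54 against 2.88 and 5.17 against 2.87), where 2.01% of all genes were. Mpeg1 was also higher in N154S control cells (5.44) than in vector control cells (2.56). Of 8 neutrophil markers, 0 or 1 reached the median. S100a8 rose in R284S cells in the limma fit (adjusted p = 0.0479), with signals of 4.72 and 4.17 there with dsDNA and in control, and its call was lost without the hSTING pair (adjusted p = 0.0637).

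Some fibroblast genes fell in the mutant lines where Acod1 was high in control cells. In the limma fit 5 of 14 markers fell in R284S cells, namely Col3a1, Col1a1, Lum, Thy1 and Pdgfrb, and 3 in N154S cells. Of all genes, 1.02% and 0.609% fell in these lines. The marker counts became 7 and 5 without the hSTING pair, 3 in R284S cells without the N154S pair and 1 in N154S cells without the R284S pair. With a trend and robust variances 9 fell in each line, and with the filter on dim genes 8 in R284S and 6 in N154S cells. Col3a1 read 6.61 in R284S and 7.69 in N154S control cells, against 9.05 in vector control cells. Its part in the Acod1 result was not tested.

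The neighbours of Acod1 on chromosome 14 were read to see whether the difference extended along the chromosome. Of the 5 nearest measured genes on each side in the RefSeq order, 1 of 10 had a range of 2 or more. This was Kctd12, which encodes an auxiliary subunit of GABA-B receptors. Kctd12 read 6.39 with dsDNA and 6.21 in control R284S cells, 7.26 and 6.33 in N154S cells, 8.45 and 6.25 in hSTING cells, and 5.97 and 5.95 in vector cells. It was thus high in hSTING cells with dsDNA but, unlike Acod1, not in R284S control cells. Mycbp2, a large ubiquitin ligase and the nearest measured gene on the other side, differed by 0.75 between dsDNA and control in hSTING cells. The annotated gene Gm41235 overlaps Acod1, and the array values used here do not separate it.

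**Figure D5:**
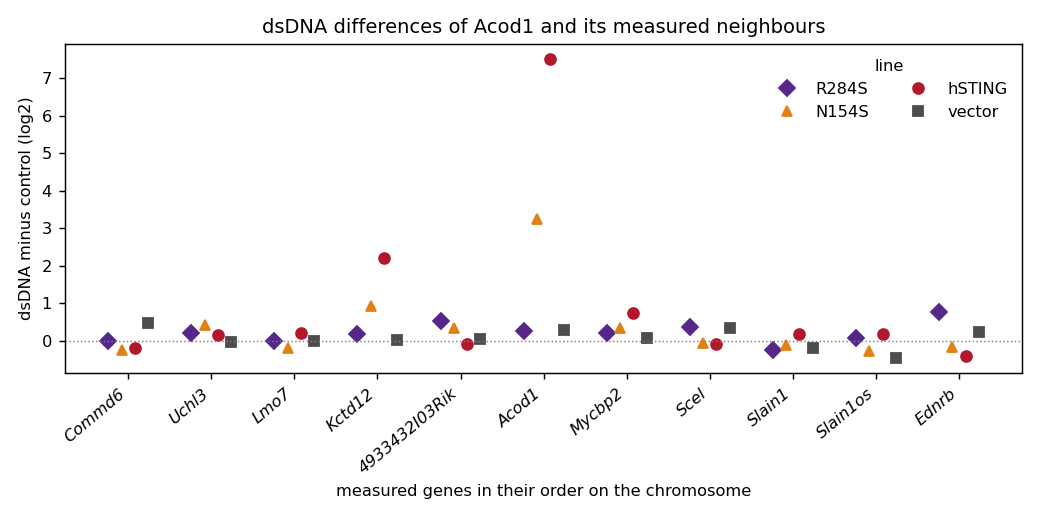
Difference of dsDNA minus control (log2, vertical axis) for Acod1 and the 5 nearest measured genes on each side, in their order on chromosome 14, with a symbol for each line. Acod1 reaches 7.52 in hSTING and 3.24 in N154S cells, and Kctd12 2.20 and 0.93.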

How the data were processed

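The 8 arrays were hybridised with cDNA made from 300 ng of total RNA with the GeneChip WT PLUS kit, per the labels' protocols. The deposited values are log2 signals with 2 decimals, made with Affymetrix Expression Console 1.3.1.187 per the submitters' processing notes; how background was corrected and probes summarised was not given in the sources used here. Medians of the arrays (3.79 to 3.85) and the ordered values (apart by 0.25 or less) were close, so arrays had been normalized to each other, which would hide a shift of all genes.

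Of 41345 probe sets, 23521 had 1 gene symbol in the platform annotation, 1814 had several and 16010 were not listed. For each of 22180 genes the probe set with the highest mean was used. No detection calls were used, so a signal below the median of its array's named genes was taken as dim and a fold against it as a lower bound against that median. Differences of 2 arrays have no test. Line and dsDNA effects came from limma 3.58.1 (lmFit and eBayes, R 4.3.3), adjusted by Benjamini-Hochberg across the 22180 genes at 0.05. Only the dsDNA term was tried on simulated data, with independent noise and the same dsDNA response in every line. That simulation does not cover the line effects or an unequal dsDNA response. The named genes were Acod1, its neighbours in range, the 10 highest by r, 5 measured genes on each side, up to 10 members per list that passed or differed 2-fold, and defining markers; Tnf, Ifnb1, Aco1, Clybl, Oxgr1, Rab32, Lilrb4a, Penk and the values of further list members were added for description. Acod1 and the gene lists were chosen with earlier results of these data known. Some listed genes are not reported here. Alternatives were quantile normalization, median centring, other filters, floors and probe set rules, other settings of limma, other measures of likeness, and leaving out each line. The number of arrays limits the precision.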

Additional observations from a re-analysis of the deposited data

How the results depend on the processing

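All 16 Acod1 differences of 2 arrays moved by at most 0.05 on the log2 scale under quantile normalization and under centring on the medians. No other probe set of Acod1 exists among those used, so that alternative was not run. With the lower quartile as the floor, the Acod1 signals all became measured, and the log2 differences given above as bounds became 7.52 for hSTING with dsDNA over control, 6.02 and 3.55 for R284S and N154S over vector control, 6.41 and 3.94 over hSTING control, and 5.99, 6.51 and 6.85 for R284S, N154S and hSTING over vector with dsDNA. Without the filter on dim genes, the genes 2-fold or more higher with dsDNA became 33 in R284S and 59 in vector cells, from 6 and 33, and the other 19 of 21 alternative counts stayed within 1.5 times.

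With a trend and robust variances limma called 4 genes for dsDNA, and in R284S cells 392 rose and 462 fell, in N154S cells 291 and 435. With the filter on dim genes these were 351 and 372 in R284S, and 287 and 349 in N154S cells. Leaving out 1 line in turn gave 0 to 1 genes for dsDNA, 50 to 363 that rose and 79 to 291 that fell in R284S cells, 106 to 347 and 72 to 247 in N154S cells, and 0 to 47 that rose in hSTING cells. The 0 came without the N154S pair, as did the 50, and 363 and 347 came without the hSTING pair. Quantile normalization ended the calls of Irf9 (limma, adjusted p = 0.0508) and S100a8 (adjusted p = 0.054) in R284S cells, and the calls of named genes lost or gained by other settings are given beside those genes above.

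Of the 10 genes most like Acod1, 0 remained among the first 10 by Spearman's rho, 2 by root mean square distance, 6 with a range of 1 or more, and 10 with quantile normalization, which was chosen after seeing the data. Leaving out 1 line in turn kept 4 to 8, with 4 without the R284S pair and 5 without the vector pair, and Neurl3, Tnfaip3 and Cxcl11 were kept in each of these 4 cases. The limma fit already takes the line as a block for dsDNA, and the labels carry no replicate numbers for any further pairing. The cause of these changes was not tested.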
